A study of Saccharomyces cerevisiae with 6 samples.

Results

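The protein O-mannosyltransferases of budding yeast are encoded by the PMT family, here PMT1 to PMT6. A probe set was taken as a member when the platform annotation named one of these genes, which gave 6 of 5449 measured genes, each with 1 probe set. The family was selected on its log2 differences between the yEVenus and empty-plasmid arrays, which were known when it was picked, so the differences of its members are a description and carry no test. Where the number of members past the limma threshold is given, the share of all genes past it stands beside it.

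Pmt proteins sit in the membrane of the endoplasmic reticulum and move a mannose from dolichol phosphate mannose onto serine and threonine residues of proteins that enter the secretory pathway. The Golgi then lengthens the chain. O-mannosylation is needed for a sound cell wall and for the stability of several surface sensors, and Pmt1 and Pmt2 are also known to modify proteins that fail to fold in the endoplasmic reticulum. By sequence the family has 3 branches, with Pmt1 and Pmt5 in the first, Pmt2, Pmt3 and Pmt6 in the second, and Pmt4 alone. Pmt1 pairs mainly with Pmt2 and Pmt5 mainly with Pmt3, while Pmt4 pairs with itself.

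All 6 arrays came from Saccharomyces cerevisiae with an SSE1 deletion, the loss of an Hsp110 chaperone that assists cytosolic Hsp70. In 3 cultures the cells held an empty plasmid and in 3 they held a yEVenus multi-copy plasmid, meant to overproduce a yellow fluorescent protein with no function in yeast. Each culture was grown from its own colony in SC-MSG medium lacking leucine at 30°C to an OD600 of 0.6. The promoter of yEVenus, its amount and the strain background are not given in the labels, and no probe set used here is annotated to yEVenus.

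The deposited values are log2 expression levels made with RMA, so 1 unit is a 2-fold difference and every difference is relative to the bulk of transcripts on the array. SSE1 averaged 3.14 ± 0.116 in the empty-plasmid group and 3.17 ± 0.071 in the yEVenus group (SD over 3 arrays), near the bottom of the scale as the label says. Of 9 stationary phase genes checked against the label of exponential growth, 8 rose and 0 fell with yEVenus (limma), namely SNO1, RTC3, SPG1, SPG4, SPG5, SNZ1, SIP18 and HSP12. The median difference of the 9 was 1.04. Whether the groups differed in growth state was not tested, here or for the differences below. The call of SPG4 was lost without empty-plasmid replicate 1 or 3 or yEVenus replicate 1 or 2, and HSP26 rose without empty-plasmid replicate 2. With the trend with coding length described below removed, 6 of the 9 rose, against 31.4% of all genes in that fit. Over all genes 3835 passed an adjusted p of 0.05 (limma, Benjamini-Hochberg), with 1599 (29.3%) higher and 2236 (41.0%) lower with yEVenus. The median difference of all genes was -0.075, and differences followed coding length (Spearman's rho across genes -0.46, where genes are not independent replicates). Control probe sets at either end were read for 7 yeast genes with a mean 3' log2 level above 6. Their mean difference was 0.052 at the 3' end and -0.60 at the 5' end. The gap of 3' minus 5' went from 1.83 ± 0.029 to 2.48 ± 0.067 (SD over 3 arrays). In all 7 genes it was wider on every yEVenus array than on any empty-plasmid array. How this bears on the differences below was not tested. The part of the length trend in the differences below was not tested, and values with the trend removed are given for the PMT genes, their neighbours and each list.

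With the yEVenus plasmid, PMT2 stood at 59.0% of its empty-plasmid level, PMT1 at 71.8% and PMT5 at 86.1%, whereas PMT6 stood at 120% of it. PMT4 and PMT3 differed least, at 90.1% and 108%. In all, 4 of the 6 were past the limma threshold, where the share of all genes was 70.4%. Of these, 3 were past the limma threshold on the lower side, where the share of all genes was 41.0%, and 1 was past it on the higher side, where the share was 29.3%. Against a minimum change of 1.2-fold, PMT1 and PMT2 passed, which is 2 of 6, where the share of all genes was 32.2%. The groups of 3 arrays did not overlap for 5 of the 6, against 74.9% of all genes. The median difference over the family was -0.18. In RNA of a whole culture, fewer cells with a transcript and less transcript per cell cannot be told apart.

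**Figure D1:**
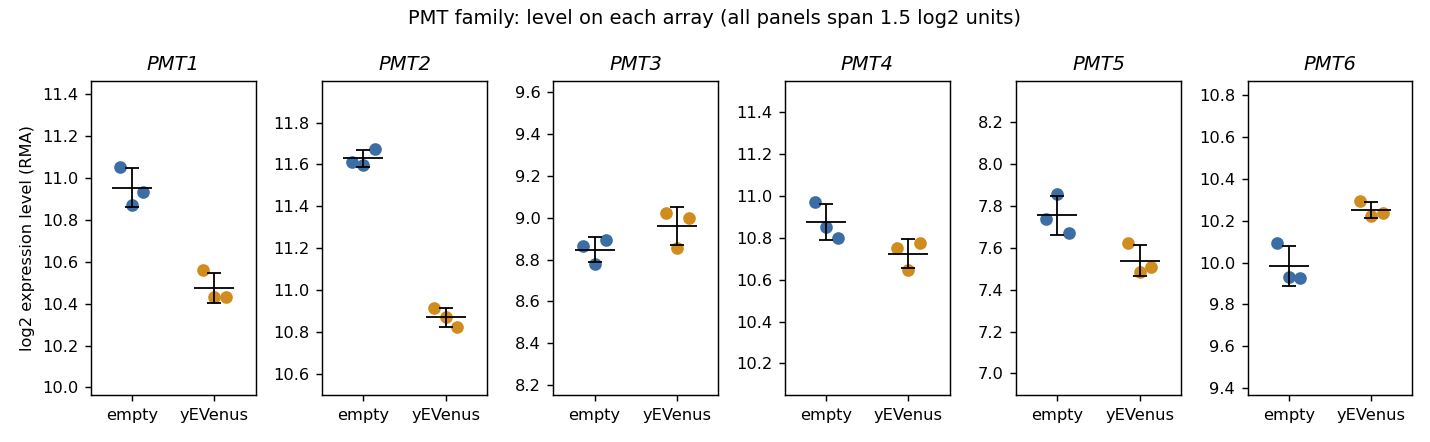
Each panel plots the log2 expression level of 1 PMT gene on each array, with the empty-plasmid arrays on the left and the yEVenus arrays on the right; bars are the mean and SD of 3 arrays. The groups are apart for every gene except PMT3, with the widest separation for PMT2.

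PMT2 (YAL023C, chromosome I) encodes the partner of Pmt1 in the main heterodimer. Its log2 levels were 11.61, 11.60 and 11.67 on the empty-plasmid arrays and 10.91, 10.87 and 10.82 on the yEVenus arrays. Every yEVenus array lay below every empty-plasmid array, and the arrays of a group stayed within a narrow band. The means were 11.63 ± 0.041 and 10.87 ± 0.044 (SD over n = 3 arrays), which gives -0.76 ± 0.0506 (SE) on the log2 scale.

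PMT1 (YDL095W, chromosome IV), the other subunit of that pair, had log2 levels of 11.05, 10.87 and 10.93 with the empty plasmid and 10.56, 10.43 and 10.43 with yEVenus. The groups again did not overlap. The means were 10.95 ± 0.093 and 10.48 ± 0.073 (SD, n = 3 each), and the log2 difference was -0.48 ± 0.0659 (SE). With the deposited values the log2 gap of PMT1 minus PMT2 within an array moved by 0.28. It lay between -0.74 and -0.56 on the empty-plasmid arrays and between -0.44 and -0.35 on the yEVenus arrays. With each array centred by chromosome, as described below, the order turned, with PMT1 at -0.41 and PMT2 at -0.35.

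PMT5 (YDL093W, chromosome IV), of the same branch as PMT1 and the next measured gene to it, encodes the main partner of Pmt3. Its log2 levels were 7.74, 7.86 and 7.67 with the empty plasmid and 7.62, 7.48 and 7.51 with yEVenus, so that the groups lay close together without overlap. The difference was -0.22 ± 0.0663 (SE) on the log2 scale. Leaving out each array in turn gave -0.26 to -0.17, but the call of PMT5 depended on single arrays. Without empty-plasmid replicate 2 the difference was -0.17, without yEVenus replicate 2 it was -0.19 and without yEVenus replicate 3 it was -0.20. In each of these fits PMT5 was no longer past the threshold.

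PMT3 (YOR321W, chromosome XV) was the member whose groups overlapped. It read 8.867, 8.780 and 8.894 with the empty plasmid and 9.021, 8.856 and 9.0002 with yEVenus on the log2 scale, with yEVenus replicate 2 inside the range of the other group. The log2 difference was 0.11 ± 0.0629 (SE), and PMT3 was not past the threshold. The log2 gap of PMT3 minus PMT5, the other main pair, widened from 1.09 ± 0.153 to 1.42 ± 0.062 (SD, n = 3 each). Its groups did not overlap, which held for 14 of the 15 pairs of members.

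PMT4 (YJR143C, chromosome X), which acts without the other members and favours membrane-bound substrates, had log2 levels of 10.97, 10.85 and 10.80 with the empty plasmid and 10.75, 10.65 and 10.77 with yEVenus. The highest yEVenus array and the lowest empty-plasmid array nearly touched. The log2 difference was -0.15 ± 0.0634 (SE), and PMT4 did not pass the adjusted threshold. Without empty-plasmid replicate 3 the difference was -0.19 and passed.

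PMT6 (YGR199W, chromosome VII), a member of the PMT2 branch whose partner is not established, was the only member past the threshold on the higher side. It read 10.09, 9.93 and 9.93 with the empty plasmid and 10.30, 10.22 and 10.23 with yEVenus on the log2 scale. Each yEVenus array lay above each empty-plasmid array, and the difference was 0.27 ± 0.061 (SE). With the deposited values the log2 gap of PMT2 minus PMT6 went from 1.64 ± 0.115 to 0.62 ± 0.029 (SD, n = 3 each). Its change of -1.03 was the largest among the 15 pairs of members, which follows from PMT2 being the lowest member and PMT6 the highest. PMT4 minus PMT5, at 0.067, changed least. With centring by chromosome PMT1, at -0.41, lay further below PMT6, at 0.34, than PMT2 did, at -0.35.

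The replicates shared some of their spread across the family. Empty-plasmid replicate 1 gave the highest level of its group for PMT1, PMT4 and PMT6. The lowest of the yEVenus group was replicate 2 for PMT1, PMT3, PMT4, PMT5 and PMT6. For PMT1 (10.433 against 10.434 on replicate 3) and PMT6 (10.224 against 10.235) the margin was narrow. How often these arrays were highest or lowest over all genes was not counted. The SD of 3 arrays ran from 0.039 to 0.094 over the 6 genes and both groups.

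PMT7 (YDR307W), annotated by its sequence as a putative member and not part of the set above, was looked at after its values were seen. It read 9.14, 8.96 and 8.99 with the empty plasmid and 9.48, 9.44 and 9.48 with yEVenus on the log2 scale. Its difference was 0.44 ± 0.0595 (SE), past the limma threshold on the higher side like PMT6, as were 29.3% of all genes. Without the length trend PMT7 was at 0.60. As it was picked by its value, this is a description and carries no test.

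The 6 PMT genes have similar coding lengths, from 2232 nt for PMT5 to 2454 nt for PMT1, so their order within the family cannot be set against a wide range of lengths. They were placed among 547 other genes of 2000 to 2600 nt, whose median difference was -0.23, with 58.0% past the threshold on the lower side and 8.96% on the higher side. In that class 4.39% of genes had a lower difference than PMT2 and 17.0% a lower one than PMT1. PMT5 and PMT4 lay near the middle, with 53.6% and 62.2% of the class below them. PMT3 and PMT6 lay toward the upper end, with 88.5% and 95.4% below them.

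**Figure D2:**
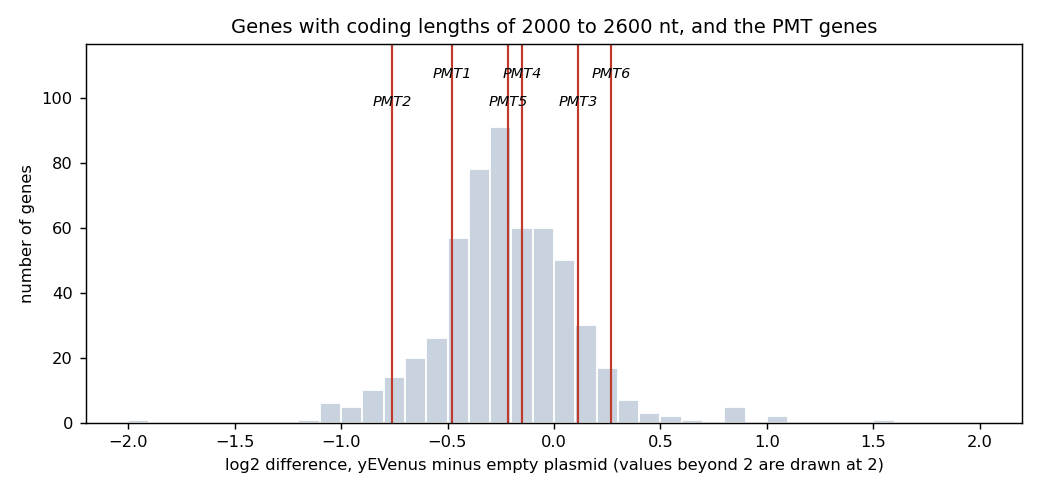
The histogram counts 547 genes with coding lengths of 2000 to 2600 nt by log2 difference (yEVenus minus empty plasmid), and red lines mark the PMT genes. PMT2 and PMT1 lie to the left of the class median of -0.23, PMT5 and PMT4 close to it, and PMT3 and PMT6 to the right.

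With the length trend removed from each array, all 6 differences moved up, by about the same amount. PMT2 was then at -0.56 and PMT1 at -0.26, both still past the threshold, and PMT6 was at 0.47. PMT5 was at -0.024 and no longer past it, PMT4 at 0.049, and PMT3 at 0.31 and now past it. That made 2 members higher and 2 lower, where the shares of all genes in that fit were 31.4% and 33.5%. The fit depends on coding length alone, so it moves genes of similar length by a similar amount. It took the deleted SSE1, of 2082 nt, from 0.025 to 0.20 and past the threshold. That shift was set by the fit and was not measured at SSE1.

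PMT2 lies on chromosome I, where most genes were lower with yEVenus. Of 90 measured genes of chromosome I, 57 fell (63.3%, against 41.0% of all genes) and 14 rose (15.6%, against 29.3%; limma). Their median difference was -0.44, and the next lowest median was -0.32 on chromosome II. The medians of the rest lay between -0.12 and 0.017. All 4 of the nearest measured neighbours of PMT2 fell. MAK16, a ribosome assembly gene, was at -1.16 (limma, adjusted p = 1.13e-05), LTE1, of mitotic exit, at -0.72 (adjusted p = 3.30e-04), FUN26, a nucleoside transporter gene, at -0.35 (adjusted p = 0.00739) and CCR4, of mRNA deadenylation, at -1.01 (adjusted p = 2.75e-05). Length removal left MAK16, LTE1 and CCR4 past the threshold, at -1.16, -0.42 and -0.79, but not FUN26, at -0.21. Of the chromosome I genes 14.4% had a lower difference than PMT2, against 3.6% of all genes.

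**Figure D3:**
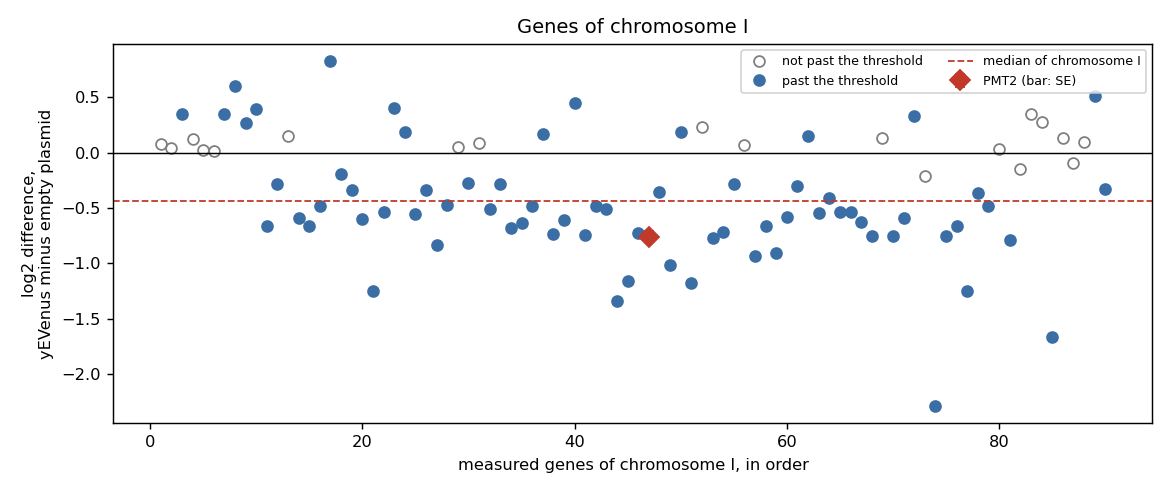
Points are the 90 measured genes of chromosome I in gene order, with the log2 difference (yEVenus minus empty plasmid) on the vertical axis; filled points passed the limma threshold. PMT2, the red diamond at -0.76, lies below the chromosome's median of -0.44, drawn as a dashed line, among neighbours that were also lower.

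When each array was centred on the median of each chromosome, the difference of PMT2 was -0.35, and with the length trend removed as well it was -0.21. PMT2 stayed past the threshold in both fits, but the value was less than with the deposited levels, and PMT1, at -0.41 and -0.26, was then the lowest member. A difference of PMT2 itself and one shared with its chromosome cannot be told apart from these arrays. The other members lie on chromosomes IV, VII, X and XV, whose medians were between -0.075 and -0.029.

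Around PMT1 and PMT5, the proteasome lid gene RPN6 fell by 0.41 on the log2 scale (limma, adjusted p = 0.0019), SRP14, of the signal recognition particle, rose by 0.23 (adjusted p = 0.00978), and SNU23 and UBX3 were at -0.12 and -0.10 and did not pass. The direction of SRP14 turned when the length trend was removed, to -0.18 (adjusted p = 0.0103), with RPN6 at -0.24, SNU23 at -0.34 and past the threshold, and UBX3 at 0.067. PMT6 stands between YPP1 at -0.33 (adjusted p = 8.85e-04) and ELP2, of the Elongator complex, at -0.31 (adjusted p = 0.00122), with SNG1 at 0.73 and YGR201C at 0.69 beyond them (adjusted p = 2.42e-05 and 6.08e-05). Without the length trend YPP1 and ELP2, at -0.11 and -0.10, no longer passed, while SNG1 and YGR201C, at 0.87 and 0.56, did. Next to PMT4, YJR142W, HIR3 and MGM101 fell by 0.35, 0.31 and 0.18 and HMS2 rose by 0.49. The call of MGM101 was lost without replicate 2 or 3 of either group. Length removal took HIR3 to 0.014 and ended its call, and left YJR142W, MGM101 and HMS2 at -0.29, -0.22 and 0.57. Next to PMT3, LDB19 and PRO2 fell by 0.27 and 0.29, while GNT1 at 0.041 and HSH49 at -0.11 did not pass. These calls were exchanged when the length trend was removed: LDB19 and PRO2, at -0.050 and -0.12, no longer passed, and GNT1 and HSH49, at 0.19 and -0.27, did.

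**Figure D4:**
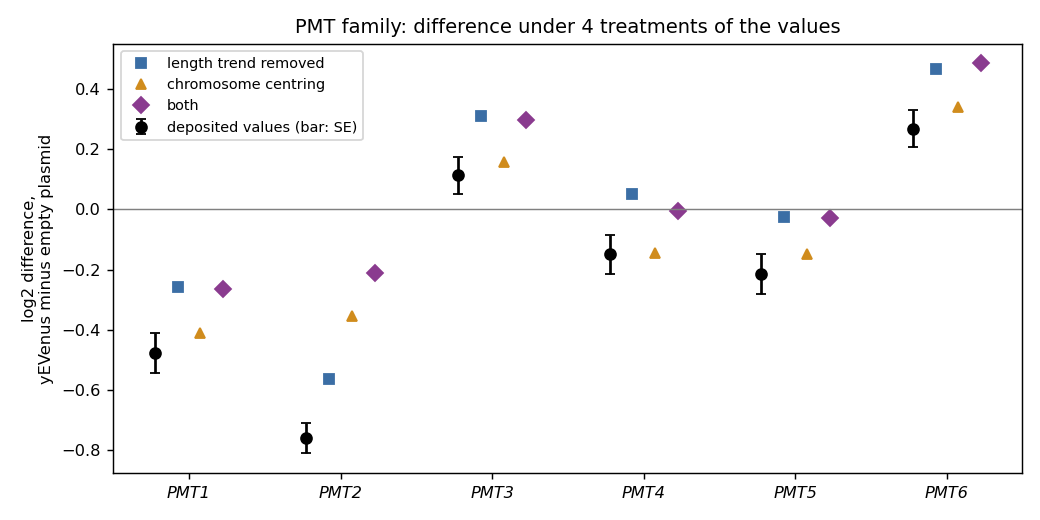
Log2 differences (yEVenus minus empty plasmid) of the 6 PMT genes from the deposited values (black, with SE), after removal of the length trend (blue), after centring by chromosome (orange) and after both (purple). PMT2 and PMT1 are below 0 and PMT6 and PMT3 above 0 under each, while PMT4 and PMT5 come close to 0 when the length trend is removed.

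The genes whose profile over the 6 arrays was nearest to that of PMT2, by Euclidean distance of log2 values minus the empty-plasmid mean, were DUG2 at a distance of 0.067, RPN8 at 0.086 and BNA4 at 0.097. DUG2, of glutathione breakdown, had a difference of -0.78, RPN8, of the proteasome lid, one of -0.79, and BNA4, of kynurenine metabolism, one of -0.77. DUG2 and BNA4 lie on chromosome II and RPN8 on chromosome XV. With centring by chromosome DUG2 was at -0.48, BNA4 at -0.47 and RPN8 at -0.75, and without the length trend they were at -0.54, -0.60 and -0.74.

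Related genes were grouped as mannose donor supply, Golgi extension, O-mannosylated proteins, other donor users, oligosaccharyltransferase and the unfolded protein response core. With the deposited values they were split in direction. Of 54 measured genes in 6 lists, 20 rose (37.0%, against 29.3% of all genes) and 16 fell (29.6%, against 41.0%), with a median difference of 0.03 against -0.075 over all genes. These lists were written from textbook knowledge with earlier results of these data known, and no test of a list was made. List counts with the length trend removed, given below, stand against 31.4% of all genes higher and 33.5% lower in that fit. With centring by chromosome the shares were 34.3% and 34.0%, and with both they were 32.5% and 32.0%. Of the 54 listed genes, 26 rose and 8 fell with the length trend removed. The counts were 22 and 10 with centring by chromosome, and 27 and 6 with both.

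Among genes that supply the mannose donor, 5 of 10 rose and 4 fell, with a median of 0.10. DFG10, a polyprenol reductase that makes dolichol, rose from 7.83 ± 0.149 to 8.83 ± 0.043 (SD, n = 3 each; limma, adjusted p = 2.74e-05). DPM1, the synthase of the dolichol phosphate mannose that all Pmt proteins use, rose by 0.33 (adjusted p = 6.91e-04), and SEC59, the dolichol kinase, by 0.31 (adjusted p = 0.00334). Of the cis-prenyltransferase genes, SRT1 rose by 0.45 (adjusted p = 0.00241) and RER2 fell by 0.41 (adjusted p = 8.31e-04). RER2 is on chromosome II, and with centring by chromosome it was at -0.11 and did not pass (adjusted p = 0.188). The fifth rise was CAX4, and the other falls were PMI40 and PSA1, which make GDP-mannose, and NUS1; these calls were weaker, with PMI40 lost without yEVenus replicate 2, PSA1 without empty-plasmid replicate 2 or yEVenus replicate 1 or 2, NUS1 without empty-plasmid replicate 3 or yEVenus replicate 1 or 3, and CAX4 without empty-plasmid replicate 2 or 3 or yEVenus replicate 1 or 2. Without yEVenus replicate 1, and likewise without yEVenus replicate 2, 2 genes of this list fell. SEC53, the phosphomannomutase gene, was at 0.015. With the length trend removed, 4 genes of the list rose and 1 fell, with a median of 0.019. Centring by chromosome left 5 rises and 0 falls, and both steps together 4 and 0.

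Of 9 genes for the Golgi step, 5 fell and 1 rose, with a median of -0.20. KTR3, a mannosyltransferase of O-linked chains that lies on chromosome II, fell by 0.44 (limma, adjusted p = 1.38e-04) and GDA1, the guanosine diphosphatase that clears the spent nucleotide, by 0.27 (adjusted p = 0.00166). KRE2, which adds the third mannose, fell by 0.28, MNT4 by 0.41 and MNT2 by 0.20, the last of which was lost without yEVenus replicate 2. VRG4, the GDP-mannose transporter gene, rose by 0.45 (adjusted p = 0.00297). With the length trend removed 3 fell and 3 rose, and the median was -0.064. Centred by chromosome KTR3 was at -0.15, with 4 falls and 1 rise in the list. With both steps KTR3 was at -0.055 and did not pass (adjusted p = 0.254), and 1 gene of the list, MNT4, fell while 3 rose.

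Among proteins known to carry O-mannose, 6 of 16 measured genes rose and 4 fell, the median difference being 0.04. AGA2, the a-agglutinin subunit, was the largest rise, from 9.56 ± 0.117 to 11.51 ± 0.064 (SD, n = 3 each; limma, adjusted p = 2.74e-06), and FUS1, of cell fusion in mating, rose by 0.85 (adjusted p = 2.24e-04). BAR1, PIR3, CTS1 and AXL2 rose by 0.41, 0.45, 0.23 and 0.16, of which CTS1 was lost without empty-plasmid replicate 3 or yEVenus replicate 2 or 3 and AXL2 without each array in turn save empty-plasmid replicate 2 and yEVenus replicate 1. PIR1, a wall glycoprotein gene, fell by 0.40, MSB2, a mucin-like sensor of the filamentous growth pathway, by 0.34, KEX2, a Golgi protease gene, by 0.26 and HSP150 by 0.16, the last lost without yEVenus replicate 2. The wall stress sensors MID2 and WSC2 were at 0.13 each and did not pass. After removal of the length trend 9 rose, 2 fell and the median was 0.26. MID2 and WSC2, at 0.24 and 0.28, were then among the rises, and the falls were PIR1, at -0.35, and CIS3, at -0.19. MSB2, KEX2 and HSP150, at -0.048, -0.038 and -0.0009, no longer passed. With centring by chromosome MID2 and WSC2, at 0.19 and 0.18, passed as well.

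The other enzymes that draw on dolichol phosphate mannose, for N-glycans and for GPI anchors, held 4 rises and 0 falls among 7 genes, with a median of 0.22. GPI18, the second mannosyltransferase of GPI anchors, rose from 10.08 ± 0.118 to 10.67 ± 0.153 (SD, n = 3 each; limma, adjusted p = 6.82e-04), although it lies on chromosome II. ALG12 rose by 0.25 (adjusted p = 0.00637), GPI14 by 0.25 and ALG3 by 0.22; ALG3 was lost without empty-plasmid replicate 3 or yEVenus replicate 1 or 2, and GPI10, at 0.18, passed without empty-plasmid replicate 1. Removal of the length trend gave 6 rises among the 7 and a median of 0.39.

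Of 9 genes of oligosaccharyltransferase, the N-glycosylation enzyme of the same membrane, 4 rose and 1 fell, with a median of 0.055. OST4, OST2 and OST5, small subunits with coding lengths of 111, 393 and 410 nt, rose by 0.97, 0.92 and 0.75 (limma, adjusted p = 8.27e-06, 4.71e-05 and 4.94e-05), while STT3, the catalytic subunit with 2157 nt, fell by 0.46 (adjusted p = 9.30e-04). SWP1 rose by 0.20, and the remaining 4 did not pass. With the length trend removed, OST4, OST2 and OST5 were at 0.59, 0.43 and 0.29 and STT3 at -0.27. Without empty-plasmid replicate 3 OST1 also fell, which made 2 falls.

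Of the core of the unfolded protein response, KAR2, the Hsp70 of the endoplasmic reticulum and a standard target of that response, fell by 0.45 (limma, adjusted p = 2.75e-04). The sensor gene IRE1 fell by 0.20 (adjusted p = 0.02), a call lost without yEVenus replicate 1 or 2, and HAC1, whose mRNA is spliced by Ire1, was at 0.08 and did not pass. With the length trend removed KAR2 was at -0.28 and IRE1 turned to 0.072, and 1 of the 3 fell. KAR2 was also the only fall of the 3 under cyclic loess, median centring and centring by chromosome, with IRE1 at -0.11, -0.13 and -0.15, and HAC1 passed under median centring, at 0.15 (adjusted p = 0.0469). The array reads the level of HAC1 RNA and not its splicing.

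**Figure D5:**
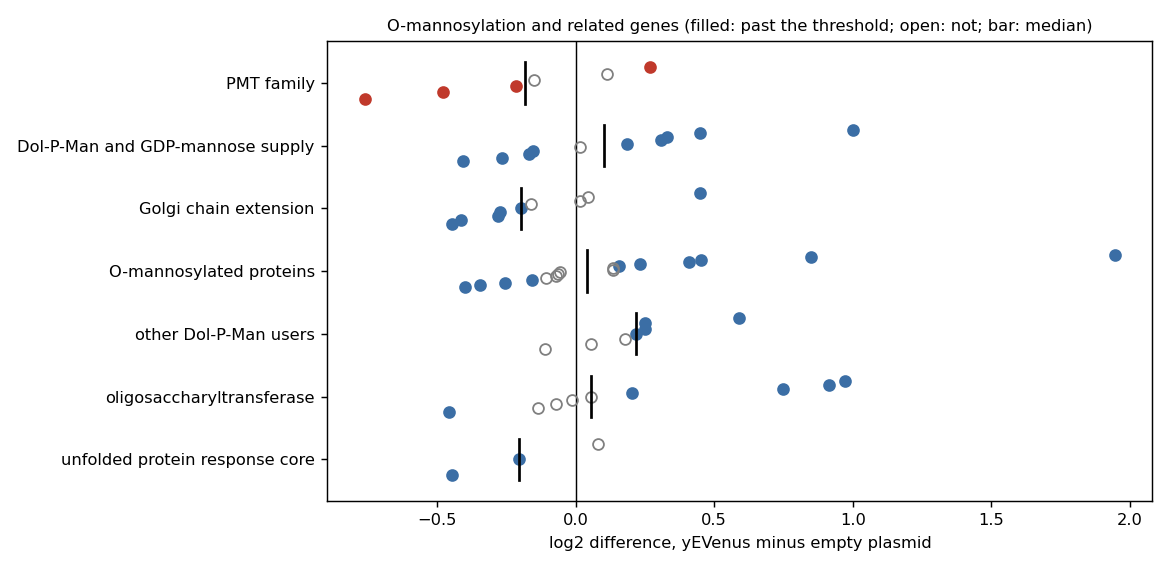
Each point is 1 gene, placed by its log2 difference (yEVenus minus empty plasmid), in rows for the PMT family (red) and 6 related lists (blue); open points did not pass the limma threshold and black bars are medians. The medians run from -0.20 to 0.22, and each list except the other dolichol phosphate mannose users and the unfolded protein response core has genes past the threshold on either side.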

How the data were processed

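Total RNA was labelled with biotin from 200 ng a sample and read on Affymetrix arrays with a kit that primes at the 3' end, per the labels' protocols. The authors deposited log2 expression values; the submitters' processing notes name RMA and R 3.2.0. For genome build and filters, nothing was given in the sources used here. Of 5900 probe sets, 5498 name 1 gene, 0 several and 402 none; the brightest probe set was used for each of 47 genes with more than 1. All 5449 genes matched a RefSeq gene table of assembly R64, used for names, chromosome, gene order and coding length (introns included).

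The comparison used lmFit and eBayes of limma 3.58.1 under R 4.3.3, with 4 residual degrees of freedom and Benjamini-Hochberg adjustment over all genes at a threshold of 0.05. "Rose" and "fell" mean past it. An exact two-sided permutation test of 3 against 3 cannot go below 0.1, and the number of arrays limits the precision. The length trend was a loess fit (span 0.5) per array; chromosome centring subtracted each array's median deviation per chromosome. Members and lists were chosen with earlier results of these data known. Named were the PMT genes, 2 measured neighbours each side, the 3 nearest profiles, and of each list the 2 smallest p and changes over 1.5-fold; other list genes, and PMT7, were named after their values were seen. WSC1, promoters and protein sequences are not analysed here.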

Additional observations from a re-analysis of the deposited data

How the results depend on the processing

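PMT1 and PMT2 kept their sign and their side of the threshold under all 17 alternatives. PMT1 lay between -0.52 and -0.26 and PMT2 between -0.78 and -0.21, and PMT6 kept its sign, between 0.24 and 0.48. The members were picked on these differences and the fits reuse the same arrays, so they are a description and carry no test. PMT3 became past the threshold under cyclic loess (0.21), median centring (0.18), removal of the length trend (0.31) and that removal with chromosome centring (0.30), which made 2 PMT genes higher in each, where the shares of all genes higher were 32.8%, 33.9%, 31.4% and 32.5%. PMT5 was no longer past it under cyclic loess (-0.15), median centring (-0.15), chromosome centring (-0.15), length removal (-0.024) and both (-0.030); PMT5 is among the dimmest 25% of genes, so leaving those out gives it no value. PMT4 passed, at -0.15, without the dimmest genes and with the trended robust variance, and its sign turned (0.049) with the length trend removed, without passing. Leaving out arrays gave -0.26 to -0.17 for PMT5 and -0.19 to -0.10 for PMT4. Against a minimum change of 1.2-fold, 1753 genes passed, 846 higher and 907 lower; of the PMT genes 2 passed and 0 were higher, as PMT5 (-0.22) and PMT6 (0.27) no longer passed, and of the pathway genes 10 passed, 8 higher and 2 lower. Among pathway genes 26 rose and 8 fell with the length trend removed, 22 and 10 with chromosome centring, and 27 and 6 with both. Where no construction shows it, the cause was not tested.

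Over all genes, median centring gave 1846 higher and 1858 lower, and cyclic loess gave 1787 and 1897. Same-numbered arrays had correlations of deviations of 0.19, -0.13 and 0.20. With 3 arrays a group, these cannot decide whether the replicate numbers mark a pairing. With the replicate block 4 PMT genes passed, 3 of them lower, and 3827 of all genes passed, and no PMT call changed.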
